A study of Homo sapiens with 6 samples.

Results

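The Notch pathway genes described here are 39 listed genes, taken by symbol: 4 receptors, 5 ligands, 5 enzymes that glycosylate the receptor, 4 subunits of gamma-secretase, 7 genes of ubiquitin transfer and endocytosis, 5 genes of the nuclear complex and 9 target genes. They were among 34834 genes that had a quantified transcript in 6 RNA-seq libraries of SKOV3, a human ovarian cancer cell line. In 3 libraries, DNM3OS_KD 1 to 3, the cells had received a pool of siRNAs against the long non-coding RNA DNM3OS, and in the other 3, NT 1 to 3, a non-targeting pool, both at 50 nM for 48 h. All cells were of a single line, and nothing in the labels says whether the libraries of a group came from separate cultures, so the p-values measure the spread between these libraries, which may be technical. The level of DNM3OS itself was not analysed here, so the knockdown was not checked in these libraries.

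Notch signaling passes between touching cells. A Jagged or Delta ligand on 1 cell binds a NOTCH receptor on its neighbour, and pulling by the ligand cell, which needs ubiquitination and endocytosis of the ligand, exposes the receptor to cleavage. Gamma-secretase then frees the intracellular domain, which enters the nucleus, binds the DNA-binding protein RBPJ with a Mastermind coactivator, and turns on HES and HEY repressors. In epithelial tumours the pathway is known for its links to cell fate and to epithelial-mesenchymal transition.

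The libraries were shallow, with 1610937 to 1995888 estimated counts, and 3 counts amounted to 1.4 to 2.11 CPM (counts on genes scaled to the TMM-adjusted library size, as in all values below), and intervals and floors below cover counting error only. On the first principal component, which held 53.9% of the variance, DNM3OS_KD 1 lay at -63.1 and NT 2 at -17.2, apart from the other 4 libraries at 8.5 to 34.2, so the range of each fold change with single libraries left out is given below. In every library a single gene, PLLP, held the most counts, at 15.68% to 22.25% of those on genes. The 86 ribosomal protein genes together held 0.232% to 0.543%, and how this bears on the levels of the members was not tested. Transcripts that overlap an exon on the opposite strand held 52.79% to 61.43% of the counts, although they made up 18% of the annotated transcripts. The libraries were stranded, but the strand setting of the quantification was not stated, and which strand the reads came from was not tested. Of 9 epithelial markers, 0 were at 0 in every library, and their summed TPM (abundance scaled for transcript length and library) was 3323 to 6248 in the knockdown and 3050 to 4425 in the non-targeting libraries. KRT8 made up most of that sum, with a mean of 4326 against 3245 TPM. KRT18 (57.3 against 82.3 TPM), KRT19 (53.7 against 86.6 TPM), ERBB2 (276.9 against 355.1 TPM) and PAX8 (13.9 against 15.54 TPM) had lower means in the knockdown. Higher means there were found for EPCAM (21.93 against 17.82 TPM) and KRT7 (19.08 against 14.48 TPM). WT1 and MUC16 had 8 and 7 counts over all libraries. For each of the 9 markers the counts overlapped between the groups. The 5 fibroblast markers summed to 78.5 to 112.5 TPM and 75.3 to 96.7 TPM, the 5 endothelial markers, with TEK at 0, to 7.5 to 16.7 TPM and 7.8 to 13.5 TPM, and the 5 leukocyte markers, with CD14 at 0, to 97.6 to 120.7 TPM and 96.1 to 112.1 TPM. PTPRC (mean 85.88 against 75.15 TPM) and CD68 (26.07 against 28.47 TPM) made up most of the leukocyte sum. The cells were of a single line, and where the reads on these markers came from was not tested.

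No Notch pathway gene passed the threshold of a 2-fold change with an adjusted p below 0.05 by edgeR's exact test with Benjamini-Hochberg adjustment over 11814 genes. Of the 39 genes, 15 had enough counts to be tested, 0 were called lower and 0 higher, against 0.00846% (1 gene) and 0% of all genes tested, and the adjusted p was 1 for each of the 15. Among them, 9 had a log2 fold change (knockdown minus non-targeting) below 0 and 6 above 0, with a median of -0.20 beside 0.00 over all genes tested. With only transcripts free of exons on the opposite strand, 10 members could be tested, without SPEN, JAG1, MIB2, MAML2 and MAML3, and the median was -0.03. An unadjusted p below 0.05 was found for 1 of the 15, SPEN, beside 2.92% of all genes tested, and by edgeR's quasi-likelihood test and by DESeq2 0 were called and 1 had an unadjusted p below 0.05. Every knockdown CPM was below every non-targeting CPM for 1 tested gene, again SPEN, and above for 0, beside 3.56% and 4.42% of all genes tested.

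**Figure D1:**
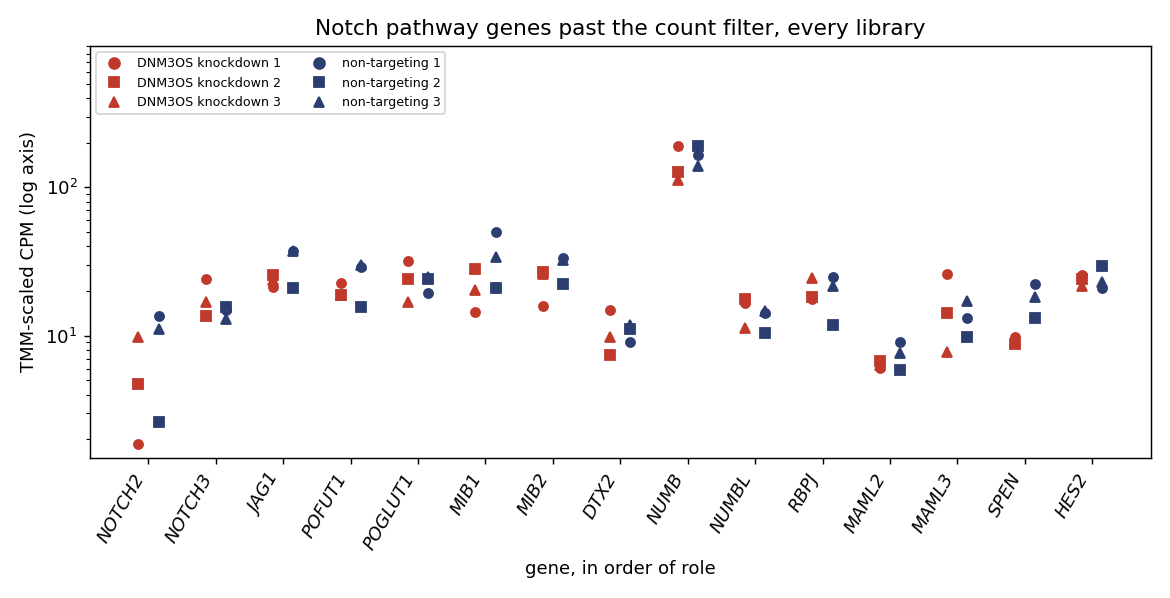
CPM after TMM scaling (vertical log axis) of the 15 Notch pathway genes that were tested, with 1 point per library, knockdown in red and non-targeting in blue, and the replicate number as the point's shape. Only for SPEN do all 3 knockdown points, at 8.78 to 9.77 CPM, lie below the non-targeting points, at 13.09 to 22.21 CPM.

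The other 24 genes were below the filter. Of these, 5 had at least 20 counts summed over the 6 libraries (NOTCH4, PSEN2, APH1A, PSENEN and HES1), 16 had 1 to 19, and HES5, HEY2 and HEYL were at 0 after rounding in every library. For these genes a count of 0 in a library allowed up to the 1.4 to 2.11 CPM given above, and a change in the 19 of them with fewer than 20 counts was not detectable at this depth.

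Per length, NUMB had the highest level of the 39 genes, at 116.3 ± 26.05 TPM (SD, n = 3) in the non-targeting libraries, above the next gene in each of them. NOTCH3 at 35.5 ± 4.54 TPM, RBPJ at 34.5 ± 10.8 TPM, MIB2 at 24.9 ± 8.46 TPM, HES2 at 22.1 ± 5.72 TPM and JAG1 at 18.4 ± 2.21 TPM followed (SD, n = 3), and each of these overlapped its neighbour in the order. The levels of several members rested on fragments of the gene. For NOTCH3, 96.4% of the counts fell on a retained-intron transcript of 748 bases (chr19:15178390-15179220, GRCh38), while the coding transcript of 8666 bases had 0. All counts of NOTCH4, 94.6% of those of POGLUT1 and 96.5% of those of DTX2 were on retained-intron transcripts too. By contrast, coding transcripts held 86.8% of the counts of JAG1, 83.9% of those of MIB1 and 90.8% of those of SPEN. They held all counts of HES2, RBPJ, MAML2, MAML3 and POFUT1. For RBPJ, however, short coding transcripts of 731 and 795 bases held 34.9% and 12.1%. The RBPJ transcript of 5860 bases held 24.0%, and its longest coding transcript, of 5990 bases, had 0.

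**Figure D2:**
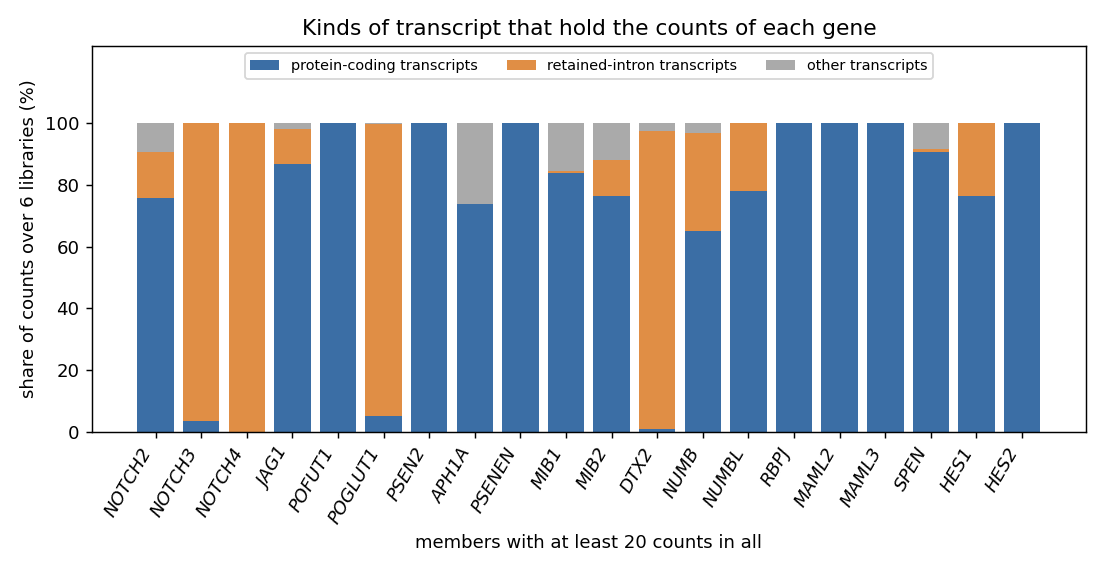
Share of each gene's estimated counts (vertical axis, percent, summed over the 6 libraries) that fell on protein-coding, retained-intron and other transcripts, for the members with at least 20 counts. The bars of NOTCH3, NOTCH4, POGLUT1 and DTX2 are almost wholly retained-intron transcripts, at 94.6% or more.

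Among the receptors, NOTCH2 and NOTCH3 were tested. NOTCH2 (ENSG00000134250, chr1:119911553-120100779, minus strand) had 4, 7 and 14 counts in the knockdown and 24, 4 and 19 in the non-targeting libraries. Both groups held a library at 4, DNM3OS_KD 1 and NT 2, and the log2 fold change was -0.79 (SE 0.81), with a range of -1.52 to -0.33 when single libraries were left out. NOTCH2 has near-identical NOTCH2NL copies in the genome, so its share of the reads is uncertain. NOTCH3 (ENSG00000074181, chr19:15159038-15200995, minus strand) had 52, 20 and 24 counts against 26, 24 and 22. DNM3OS_KD 1 was the highest of the 6 and the others overlapped, with a log2 fold change of 0.35 (SE 0.24) that ranged from 0.08 without DNM3OS_KD 1 to 0.52 without DNM3OS_KD 2. NOTCH4, the receptor best known from endothelium, had 15, 9 and 5 counts against 14, 9 and 9. NOTCH1 had 1, 0 and 0 counts against 0 in every non-targeting library, but only a single retained-intron transcript of it matched the annotation used here. Quantified transcripts without a match were left out, and whether any of them belonged to NOTCH1 was not tested.

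JAG1 was the only ligand with enough counts to be tested. JAG1 (ENSG00000101384, chr20:10637684-10673999, minus strand) had 46, 38 and 34 counts in the knockdown and 65, 32 and 63 in the non-targeting libraries. In CPM this was 23.6 ± 2.14 against 31.7 ± 9.29 (SD, n = 3), with NT 2 the lowest of the 6 libraries, and the log2 fold change was -0.43 (SE 0.27, p = 0.161 and adjusted p = 1, edgeR's exact test), from -0.65 without NT 2 to -0.31 without NT 1. Scaled for length the groups did not overlap, with 10.6, 14.4 and 8.35 TPM against 15.93, 18.99 and 20.22 TPM. The coding transcript of 6048 bases did overlap, with 39.3, 32.6 and 31.8 counts against 60.5, 21.0 and 54.0, and NT 2 was lowest. On a retained-intron transcript of 580 bases NT 2 had the most, 3.0 counts. Short transcripts weigh most per length, and their part in the TPM values was not tested. A log2 fold change of -0.73 (p = 0.0305, adjusted p = 1, edgeR's exact test) came from length-scaled counts, which are TPM values multiplied back by the mean transcript length of the gene. The transcript that held 86.0% of the JAG1 counts overlaps a lncRNA on the opposite strand by 306 bases. The other ligands, JAG2, DLL1, DLL3 and DLL4, had 0 to 5 counts in any library.

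Glycosylation of the receptor's EGF repeats sets which ligands it can bind. POFUT1, which adds the O-fucose, had 49, 28 and 27 counts against 51, 24 and 51, a log2 fold change of -0.30 (SE 0.30) that ranged from -0.52 without NT 2 to -0.16 without NT 3. POGLUT1, which adds O-glucose, had 69, 36 and 24 counts against 34, 37 and 42, and its log2 fold change of 0.12 (SE 0.28) ranged from -0.13 without DNM3OS_KD 1 to 0.33 without DNM3OS_KD 3. For both enzymes the groups overlapped. The Fringe enzymes LFNG, MFNG and RFNG, which extend O-fucose, had 0 to 5 counts in any library.

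None of the 4 listed gamma-secretase subunits could be tested. PSEN2, a catalytic subunit, had 16, 5 and 11 counts in the knockdown and 9, 6 and 5 in the non-targeting libraries. APH1A, a scaffold subunit, had 5, 5 and 8 against 11, 1 and 10. PSENEN, which helps to activate the complex, had 3, 8 and 8 against 8, 5 and 10. The groups overlapped for each of these, and NCSTN, the subunit that receives substrates, had 1 to 3 counts in any library. For APH1A, 77.8% of the counts were on transcripts that overlap exons on the opposite strand, with C1orf54 there over 490 bases, and for PSENEN the share was 96.4%.

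Of the genes of ubiquitin transfer and endocytosis, 5 of 7 were tested. MIB1 (ENSG00000101752, chr18:21704957-21870953, plus strand), the ubiquitin ligase that drives ligand endocytosis, had 31, 42 and 29 counts in the knockdown and 88, 32 and 58 in the non-targeting libraries. In CPM this was 21.04 ± 6.999 against 35.1 ± 14.6 (SD, n = 3), with NT 2 inside the range of the knockdown, and the log2 fold change was -0.75 (SE 0.44, p = 0.0512 and adjusted p = 1, edgeR's exact test). Leaving out single libraries moved it from -1.03, without DNM3OS_KD 2, to -0.41, without NT 1. The TPM values of MIB1 did not overlap, at 5.98, 4 and 3.57 in the knockdown and 20.4, 6.44 and 13.6 in the non-targeting libraries. With length-scaled counts the log2 fold change was -1.59 (p = 0.000245, adjusted p = 0.2244, edgeR's exact test), past 2-fold but not past the threshold on the adjusted p.

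The MIB1 transcripts differed in how they contributed. The coding transcript of 9576 bases had 28.2, 42.0 and 25.6 counts in the knockdown and 67.6, 23.7 and 48.1 in the non-targeting libraries, overlapping between groups. A transcript of 3306 bases without a defined coding sequence had 0.0, 0.0 and 3.4 counts against 12.4, 7.0 and 5.3. Another of 726 bases had 2.5, 0.0 and 0.0 counts against 8.0, 1.3 and 2.9. So the shorter transcripts, which weigh most per length, held few counts in the knockdown, and their part in the length-scaled value was not tested.

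The related ligase MIB2 had 34, 40 and 37 counts against 59, 34 and 55, a log2 fold change of -0.38 (SE 0.30) with NT 2 inside the knockdown's range, and it ranged from -0.54 without NT 2 to -0.14 without DNM3OS_KD 1. NUMB, an endocytic adaptor that restrains Notch in the receiving cell, had the most counts of the 39 genes, with 410, 189 and 159 in the knockdown and 291, 291 and 237 in the non-targeting libraries. Its log2 fold change was -0.20 (SE 0.26), and without DNM3OS_KD 1, the library with 410 counts, it was -0.45 (p = 0.0333, adjusted p = 1, edgeR's exact test). It came closer to 0 without NT 2, at -0.08, and without DNM3OS_KD 3, at -0.05. The NUMB paralogue NUMBL had 36, 26 and 16 counts against 25, 16 and 25, a log2 fold change of 0.21 (SE 0.24). It ranged from 0.09 without NT 2 to 0.38 without DNM3OS_KD 3, and was 0.02 without both DNM3OS_KD 1 and NT 2. DTX2, a Deltex ubiquitin ligase, had 32, 11 and 14 counts against 16, 17 and 20, a log2 fold change of 0.04 (SE 0.28) that ranged from -0.29 without DNM3OS_KD 1 to 0.24 without DNM3OS_KD 2. DTX1 and DTX4 had 0 to 5 counts in any library.

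**Figure D3:**
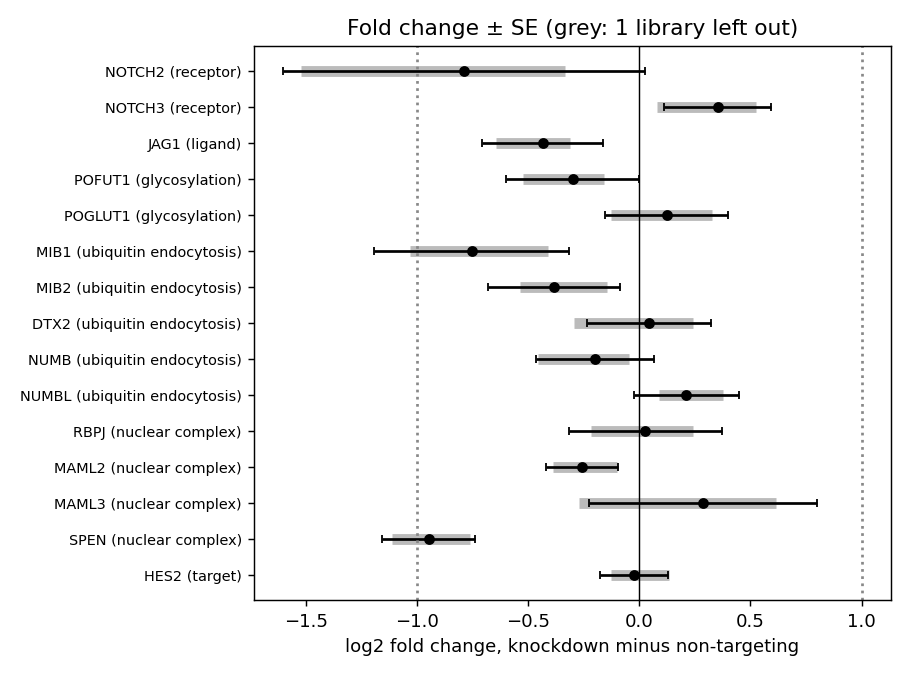
Log2 fold change (horizontal axis, knockdown minus non-targeting) of the 15 tested genes by role, with bars of 1 SE from the spread of log2 CPM (n = 3 per group), grey bands for the range when single libraries were left out, and dotted lines at a 2-fold change. SPEN at -0.95, NOTCH2 at -0.79 and MIB1 at -0.75 lie lowest, and the grey bands of POGLUT1, DTX2, RBPJ, MAML3 and HES2 cross 0.

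SPEN had the lowest fold change of the tested members. SPEN (ENSG00000065526, chr1:15836095-15940456, plus strand) encodes a large corepressor that binds RBPJ and keeps targets off when Notch is not active. It had 21, 13 and 13 counts in the knockdown and 39, 20 and 31 in the non-targeting libraries, or 9.22 ± 0.502 CPM against 17.9 ± 4.57 CPM (SD, n = 3). The CPM groups did not overlap (exact permutation test, two-sided, p = 0.1, the smallest that 3 against 3 allows). The log2 fold change was -0.95 (SE 0.21, p = 0.00876 and adjusted p = 1, edgeR's exact test), under a 2-fold change, and it ranged from -1.11 without NT 2 to -0.76 without NT 1. In TPM the groups overlapped, with 4.44, 3.21 and 3.33 against 10.2, 3.08 and 9.58, where NT 2 was the lowest of the 6. The transcript of 12232 bases that held 90.8% of its counts overlaps SPEN-AS1 on the opposite strand by 40 bases.

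RBPJ (ENSG00000168214, chr4:26163455-26435131, plus strand), through which all NOTCH receptors reach DNA, had 38, 27 and 35 counts against 44, 18 and 37. Its log2 fold change was 0.03 (SE 0.34), and the sign changed when either DNM3OS_KD 3 or NT 2 was left out. MAML2, a Mastermind coactivator, had 13, 10 and 9 counts against 16, 9 and 13, a log2 fold change of -0.26 (SE 0.16) that ranged from -0.39 without NT 2 to -0.10 without NT 1. MAML3 had 56, 21 and 11 counts against 23, 15 and 29, a log2 fold change of 0.29 (SE 0.51) that was -0.27 without DNM3OS_KD 1, its highest library. The groups overlapped for all 3 genes. All counts of MAML2 and of MAML3 were on transcripts that overlap exons on the opposite strand, for MAML3 those of MGST2 over 252 bases, and MAML1 had 0 to 5 counts in any library.

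The target genes were mostly near the floor. HES2 (ENSG00000069812, chr1:6412418-6424670, minus strand), a HES-family repressor, was the only target tested, with 55, 36 and 31 counts in the knockdown and 37, 45 and 39 in the non-targeting libraries. The values interleaved, at 23.9 ± 1.95 CPM against 24.5 ± 4.403 CPM (SD, n = 3), and the log2 fold change was -0.02 (SE 0.15). HES1 (ENSG00000114315, chr3:194136148-194138732, plus strand), the target most often used as a readout of Notch activity, had 1, 2 and 4 counts in the knockdown and 7 in each non-targeting library. That is 1.54 ± 1.18 CPM against 4.23 ± 0.313 CPM (SD, n = 3), and every knockdown library was below every non-targeting library (exact permutation test, two-sided, p = 0.1, the smallest that 3 against 3 allows). From the sums of 7 and 21 counts the ratio of knockdown to non-targeting was 0.33, with a 95% exact Poisson interval of 0.12 to 0.80 for counting error only. Without a filter the log2 fold change was -1.52 (p = 0.058 and adjusted p = 1, edgeR's exact test), and among genes that reached 1 CPM in 3 or more libraries it was -1.54 (p = 0.0311 and adjusted p = 1, same test). HES1 passed the threshold in neither.

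**Figure D4:**
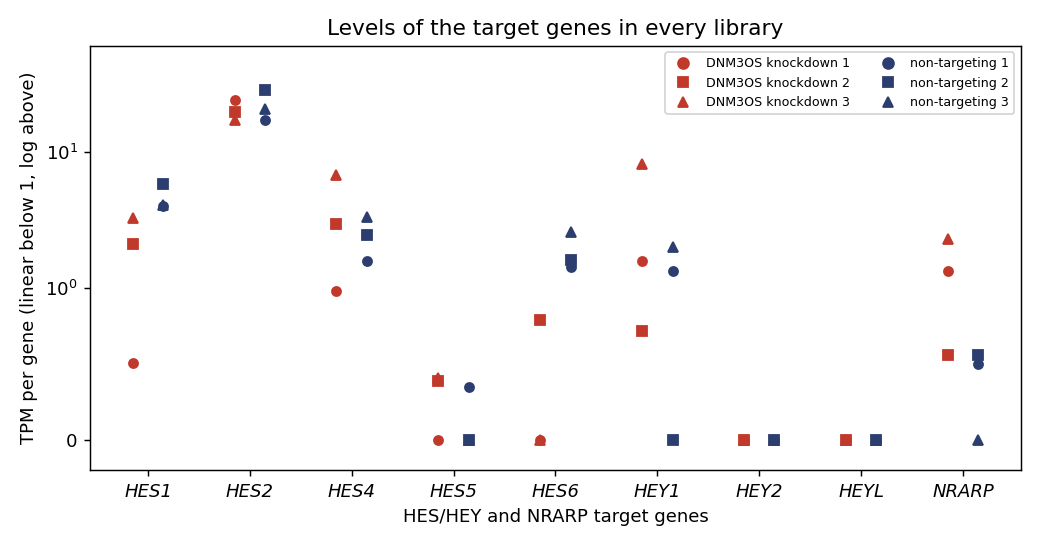
TPM (vertical axis, linear below 1 and log above) of the 9 HES, HEY and NRARP target genes, 1 point per library, knockdown in red and non-targeting in blue. HES2 is the highest in every library, the HES1 points of the knockdown (0.51 to 3.28 TPM) lie below those of the non-targeting libraries (3.99 to 5.83 TPM), and HEY2 and HEYL are at 0 throughout.

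NRARP, which feeds back on the Notch complex, went the other way in CPM, with 3, 1 and 4 counts in the knockdown and 1, 1 and 0 in the non-targeting libraries. The ratio of the sums, 8 against 2, was 3.94, with a 95% exact Poisson interval of 0.79 to 38.11, and its TPM groups overlapped. DNM3OS_KD 2 and NT 2 each had 1 NRARP count, at 0.68 and 0.65 CPM, so only the library scaling kept the CPM groups apart. Of the 21 members below the filter with at least 1 count, the CPM groups did not overlap for 1 lower gene, HES1, and 1 higher gene, NRARP, beside 3.02% lower and 3.93% higher among all 10934 such genes. HES4, HES6 and HEY1 had 0 to 5 counts in any library.

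In TPM, the groups did not overlap for 2 of the 15 tested members, JAG1 and MIB1, both lower, and for 0 higher, beside 4.01% lower and 3.93% higher among all genes tested. Of the 21 members below the filter with a count, 3 were lower in TPM without overlap, NOTCH4, HES1 and HES6, and 1 was higher, DTX4, beside 3.37% and 3.18% of all such genes. NOTCH4 had 2.78, 2.86 and 2.41 TPM in the knockdown and 4.11, 3.50 and 3.54 TPM in the non-targeting libraries, although its CPM groups overlapped. HES6 and DTX4 had at most 5 counts in a library.

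**Figure D5:**
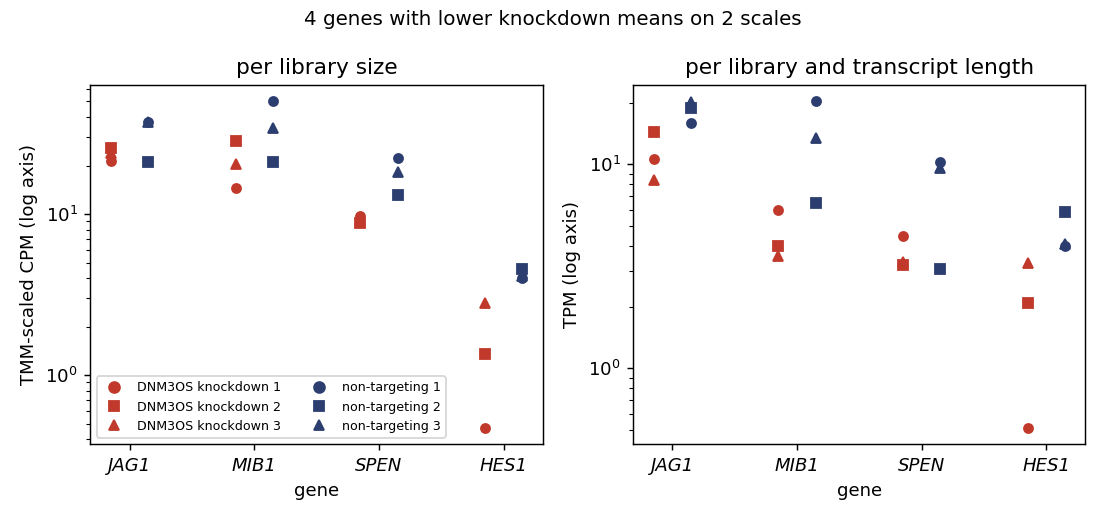
JAG1, MIB1, SPEN and HES1 in every library as CPM after TMM scaling (left, log axis) and as TPM (right, log axis), knockdown in red and non-targeting in blue. These 4 genes were chosen after their values were seen: the groups of JAG1 and MIB1 are apart in TPM but not in CPM, those of SPEN in CPM but not in TPM, and those of HES1 on both scales.

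Sequences upstream of the target genes are shown because RBPJ, the factor that joins this family, binds the letters TGGGAA, and HES2, HES1 and HES4 were the targets with the most counts. The 250 bases before the RefSeq start site on GRCh38.p14 are printed 5′ to 3′ on the gene's strand, with TGGGAA, or its reverse complement TTCCCA, in capitals. The windows are chr3:194135898-194136147 on the plus strand for HES1, chr1:6419920-6420169 on the minus strand for HES2 and chr1:1000098-1000347 on the minus strand for HES4.
HES1: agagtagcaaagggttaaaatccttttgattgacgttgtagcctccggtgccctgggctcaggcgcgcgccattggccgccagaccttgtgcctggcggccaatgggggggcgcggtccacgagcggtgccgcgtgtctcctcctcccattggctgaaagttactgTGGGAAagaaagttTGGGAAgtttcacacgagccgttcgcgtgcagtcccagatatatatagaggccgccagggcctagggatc
HES2: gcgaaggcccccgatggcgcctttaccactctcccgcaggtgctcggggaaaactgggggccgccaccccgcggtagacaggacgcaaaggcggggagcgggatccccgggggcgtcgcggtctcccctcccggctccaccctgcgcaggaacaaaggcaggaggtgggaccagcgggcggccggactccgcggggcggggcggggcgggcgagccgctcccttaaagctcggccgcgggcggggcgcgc
HES4: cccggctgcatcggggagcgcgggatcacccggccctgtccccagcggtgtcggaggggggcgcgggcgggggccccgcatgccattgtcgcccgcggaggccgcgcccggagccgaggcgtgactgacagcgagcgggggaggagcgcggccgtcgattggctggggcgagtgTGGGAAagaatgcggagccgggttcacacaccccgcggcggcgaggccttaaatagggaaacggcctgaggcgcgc
The HES1 window held 2 matches, starting 84 and 70 bases before the start site, HES4 held 1 at 76 bases, and HES2, the highest target in TPM, held none. The HES2 window lies before a transcript with 45.1% of the gene's counts, while the transcript with the other 54.9% starts farther upstream, at position 6424670, and the sequence before that start was not searched. Of all 35116 windows, 20.8% held at least 1 match on either strand and 2.9% held 2 or more. Among the 8 target genes with a window, 5 held a match: HES1, HES4, HES5, HEY2 and HEYL. Of these, HES5, HEY2 and HEYL were at 0 counts after rounding in every library. A match describes these letters only, and binding was not measured.

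The class medians of the log2 fold change were -0.22 for the 2 tested receptors, -0.43 for the 1 ligand, -0.09 for the 2 glycosylation enzymes, -0.20 for the 5 genes of ubiquitin transfer and endocytosis, -0.12 for the 4 nuclear genes and -0.02 for the 1 target. The summed TPM of the ligands was 13.4, 16.7 and 10 in the knockdown and 20.8, 20.3 and 21.8 in the non-targeting libraries, without overlap, and JAG1 made up most of it. The summed TPM of the receptors, the glycosylation enzymes, gamma-secretase, the ubiquitin and endocytosis genes, the nuclear genes and the targets each overlapped between groups.

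With DNM3OS_KD 1 and NT 2 both left out, a choice made after the data were seen, 0 members were called and 4 had an unadjusted p below 0.05, all lower in the knockdown, beside 8.85% of the 11975 genes tested in that fit, up from 2.92% with all libraries. SPEN was then at -1.15 (p = 0.0023, adjusted p = 0.1656), MIB1 at -0.77 (adjusted p = 0.2842), JAG1 at -0.56 (adjusted p = 0.5149) and POFUT1 at -0.62 (adjusted p = 0.5344), all by edgeR's exact test on 2 libraries against 2. The adjusted p of SPEN in that fit was the smallest of any tested member under any alternative.

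Other genes of the pathway were read from a list of 60, among them coactivators, corepressors, further ubiquitin ligases, atypical ligands and shedding proteases. Of these, 35 were tested, 0 passed the threshold in either direction, 24 had a log2 fold change below 0 and 11 above, with a median of -0.11 beside 0.00 over all genes tested. CREBBP, a histone acetyltransferase recruited through Mastermind, had the smallest p among the tested genes below 0, with 41, 23 and 19 counts against 35, 37 and 62 and a log2 fold change of -0.73 (SE 0.28, p = 0.0302 and adjusted p = 1, edgeR's exact test). Its CPM groups did not overlap, and neither did those of GXYLT1, a xylosyltransferase that extends O-glucose, at 43, 30 and 22 counts against 52, 50 and 37 (log2 fold change -0.58, SE 0.21). Of the 35 tested, these 2 were lower without overlap and 0 were higher, beside 3.56% and 4.42% of all genes tested. Among those above 0, DNM1, an endocytic dynamin, had a log2 fold change of 0.39 (SE 0.18) and DLK2, an atypical ligand, 0.45 (SE 0.35), both with an adjusted p of 1 by edgeR's exact test. Among the listed genes below the filter, 3 were picked out after their values were seen, and each had an adjusted p of 1 by edgeR's exact test without a filter. BHLHE41, a bHLH repressor, had 3, 3 and 1 counts against 13, 13 and 6 (unfiltered log2 fold change -2.16, p = 0.00221, edgeR's exact test). ITCH, a ubiquitin ligase, had 11, 0 and 1 counts against 21, 9 and 9 (-1.81, p = 0.017), and TLE2, a corepressor, 7, 8 and 5 against 0, 2 and 3 (1.92, p = 0.0168), by the same exact test.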

How the data were processed

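Per the labels and the study's methods, the authors made stranded, ribosomal RNA-depleted libraries, and ran kallisto 0.43.0 on the paired reads with the Ensembl transcriptome (GRCh38). The deposited values were, per transcript, estimated counts, TPM and an effective length. The strand setting was not given in the sources used here. Of 173259 transcripts, 155518 matched GENCODE 44 by identifier. The other 17741 were left out. The estimated counts deposited by the authors were summed per gene and rounded, and the deposited TPM were summed per gene. Genes were filtered with filterByExpr (minimum count 10), normalized by TMM and compared, 3 libraries against 3, by edgeR's exact test (version 4.0.16, R 4.3.3), adjusted by Benjamini-Hochberg. A call needed a 2-fold change and an adjusted p below 0.05. SEs came from log2 CPM (prior count 2). Single genes were compared by exact permutation over 20 assignments. Exon overlaps came from bedtools 2.31.1. The code was tested on simulated data. The alternatives were the quasi-likelihood test with and without a replicate block, DESeq2 1.42.0, RLE, other filters, other ways of summing and leaving out libraries.

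Every member that passed the filter was named, those below it by counts. Of the other pathway genes, the 2 tested ones with the smallest p in each direction were named. Some below the filter were added after their values were seen. The members and lists were chosen with earlier results of these data known. The replicate numbers were checked and did not pair the libraries: deviations from the group means correlated at -0.396, -0.336 and 0.233 between libraries of the same number.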

Additional observations from a re-analysis of the deposited data

How the results depend on the processing

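Over all genes tested, where 1 was lower and 0 higher past the threshold, the number lower was 0 with the quasi-likelihood test, 0 with that test and a replicate block, 0 with DESeq2, 2 without a filter, 2 with at least 1 CPM in at least 3 libraries, 4 with length-scaled TPM counts (with 2 higher) and 0 with only transcripts free of opposite-strand exons. Leaving out single libraries gave 0 to 3 lower and 0 to 1 higher, and leaving out DNM3OS_KD 1 and NT 2 gave 31 lower and 8 higher. With only transcripts free of opposite-strand exons the median was -0.03 over the 10 members that could be tested, against -0.20 over 15. The sets differ, so the 2 medians do not show a shift in the same genes. In the main fit the members left out were at -0.95 (SPEN), -0.43 (JAG1), -0.38 (MIB2), -0.26 (MAML2) and 0.29 (MAML3). The members called stayed at 0 under all these alternatives, and those with an unadjusted p below 0.05 ranged from 0 to 4. SPEN was the 1 such member with the replicate block. The labels do not say that a number marks a shared batch or day, and only DNM3OS_KD 3 with NT 3 correlated above 0 among same-numbered pairs (0.233). NT 3 correlated best with its own number, DNM3OS_KD 3 did not (0.286 with NT 1), and neither did the other 4 libraries.

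Without DNM3OS_KD 1 and NT 2, the median log2 fold change was -0.35 for the glycosylation enzymes and -0.38 for the nuclear genes, and the sign reversed for POGLUT1 (-0.074), DTX2 (-0.26), RBPJ (-0.11), MAML3 (-0.43) and HES2 (0.087). Single libraries left out moved POGLUT1 from -0.13 to 0.33, DTX2 from -0.29 to 0.24, RBPJ from -0.22 to 0.24, MAML3 from -0.27 to 0.61 and HES2 from -0.13 to 0.13. DTX2 was at -0.01 with the replicate block and at -0.003 with length-scaled counts. RBPJ was at -0.086 with length-scaled counts. It was at -0.002 without transcripts over opposite-strand exons, although that setting removed none of the transcripts of RBPJ itself. The cause was not tested. The sign held for the other 10 tested members in every alternative that tested them. At 1.4 to 2.11 CPM for 3 counts, changes in the 24 members below the filter could mostly not be resolved.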

Other observations

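A transcript that overlaps an exon on the opposite strand was annotated for 13 of the 39 members (33.3%), beside 22.7% of all genes with a quantified transcript. Such transcripts held 77.8% of the counts of RFNG, which overlaps GPS1 by 835 bases, and 83.5% of those of NCSTN, which overlaps COPA. They held 93.6% of the counts of MIB2. What part of these counts came from the opposite strand was not tested.

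Among the 15 tested members, DNM3OS_KD 1 was the highest of the 6 libraries for 5 and the lowest for 3. NT 1 was the highest for 6, and NT 2 was the lowest for 5. Over all genes tested, DNM3OS_KD 1 was the highest for 28% and the lowest for 29.8%, NT 1 was the highest for 19.8% and NT 2 was the lowest for 12.2%.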
